A study of Homo sapiens with 2 samples.

Results

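The broadest binding sites of the histone methyltransferase KMT2D (MLL4) were examined in the established lymphoma line OCI-LY7, which represents the germinal centre B-cell type of diffuse large B-cell lymphoma. Broad peaks were those over 2000 bp wide on chromosomes 1 to 22 that did not belong to a cluster of 10 or more peaks, where clusters were made by stitching peaks at gaps of at most 12500 bp. This gave 493 broad peaks among the 24151 peaks listed on these chromosomes for the KMT2D library. The whole list held 24824 peaks. Another 49 peaks of that width lay in the large clusters and were set aside. The broad peaks were chosen by the listed width and by stitching, so neither is a finding, and every other value below comes from the same library.

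KMT2D is the catalytic subunit of a complex that methylates histone H3 at lysine 4. It works mainly at enhancers, where it is known to prepare chromatin for activation, and it can also be found at promoters. Its gene is among those most often inactivated in germinal centre lymphomas. Chromatin marks laid down by enzymes of this family can be spread over wide stretches, and wide stretches of such marks are often found at genes that define a cell's identity.

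Chromatin immunoprecipitation with sequencing (ChIP-seq) gave 1 library with an antibody against the N-terminal end of KMT2D, and 1 input library was made without antibody. Both came from the same line, whose genotype the labels give as wt. The cells were grown in IMDM with 15% serum and fixed with 1% formaldehyde for 10 min, and the chromatin was sheared to fragments of 200 to 400 bp. With 1 ChIP library there was no replicate, so no test was possible. Intervals are at 95% and cover counting error over peaks, which are not independent, and the sequencing depth is unknown. The positions are on hg19 as listed. No annotation or sequence of that build was used, so no gene or sequence is given for a peak.

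The broad peaks had a median width of 2360 bp (interval 2306 to 2401 bp), against 1255 bp (1243 to 1263 bp) for the 4804 peaks over 1 and up to 2 kb wide outside the large clusters, which serve as the closest comparison (peaks of 1 to 2 kb from here on; other classes are bounded in the same way). Their number fell off quickly with width. There were 188 broad peaks over 2500 bp, 68 over 3000 bp, 32 over 3500 bp, 11 over 4000 bp and 4 over 5000 bp. Together the broad peaks covered 1.24 Mb, or 7.44% of all bases under peaks on these chromosomes. The threshold cut through a continuous range of widths. The 5 peaks just inside it were 2001 to 2002 bp wide with heights of 53 to 69, and the 5 just outside were 1996 to 2000 bp wide with heights of 60 to 97.

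The widest peak spanned 6670 bp on chromosome 14 at 106317140 to 106323810. Its height, a whole number in the authors' units, was 93, and its nearest neighbour began only 124 bp away. The next in width lay on chromosome 10 at 104401692 to 104407997 and was 6305 bp wide, and its height was 58. A site of 5235 bp followed on chromosome 5 at 175960245 to 175965480 and was 89 high. These 3 sites each lay in a cluster of 6 or 7 peaks. The site of 5122 bp on chromosome 18 at 3447641 to 3452763 was different in its surroundings, since it stood alone with the next peak 45.6 kb away; its height was 61. Chromosome 6 carried a peak of 4930 bp at 32935809 to 32940739 with a height of 84.

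Chromosome 2 held the next in width, both of them among the taller of the widest peaks. One was 4795 bp wide at 8712546 to 8717341 and had a height of 101, and the other was 4704 bp wide at 232570959 to 232575663 and had a height of 116. The remaining 3 of the 10 widest lay on chromosome 15 at 69109479 to 69113889 (4410 bp, height 66), on chromosome 14 at 69259195 to 69263512 (4317 bp, height 98) and on chromosome 6 at 143264908 to 143269153 (4245 bp, height 55). Of these 10 peaks, 5 had a neighbour under 1000 bp away and 1 was lone.

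The 10 tallest broad peaks were other sites than the 10 widest, although both lists are short for 493 peaks. The tallest broad peak, on chromosome 13 at 91999077 to 92001772, reached 238 over 2695 bp, and the second, on chromosome 3 at 48698730 to 48701930, reached 234 over 3200 bp. The third, 2008 bp on chromosome 9 at 37026238 to 37028246, had a height of 192, and the fourth, 2148 bp on chromosome 14 at 23024622 to 23026770, had one of 187. These 4 were the broad peaks whose significance value, a negative score per peak from the authors, was listed at minus infinity, among 29 such peaks on chromosomes 1 to 22. The other 6 of the 10 tallest had heights of 152 to 179. They lay on chromosome 17 at 80406860 to 80409080, on chromosome 16 at 3018367 to 3020756, 30932882 to 30935152 and 67580706 to 67582753, on chromosome 1 at 144930796 to 144933235 and on chromosome 12 at 6960115 to 6962171. The 10 tallest had a median width of 2245 bp, and the 10 widest had a median height of 86.5.

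Broad peaks were not much taller than peaks of the next lower widths. Their median height was 75 (71 to 77), with an interquartile range of 59 to 92, against 67 (67 to 68) and 54 to 84 for peaks of 1 to 2 kb. The difference in median was 8, with a conservative interval of 3 to 10. Set against peaks of 1.5 to 2 kb it was 4, with an interval of -1 to 8 that includes no difference. Median height climbed over the lower widths, being 26 for peaks of 0.1 to 0.5 kb, 49 for 0.5 to 1 kb, 66 for 1 to 1.5 kb and 71 for 1.5 to 2 kb. Above that it was 71 for 2 to 2.5 kb, 80.5 (77 to 86) for 2.5 to 3.5 kb and 72.5 (62 to 90) for the 32 peaks over 3500 bp. Across the 493 broad peaks the rank correlation (Spearman) between width and height was 0.20 and the linear one (Pearson) 0.12, from 1 library and over a range of widths cut at 2000 bp.

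**Figure D1:**
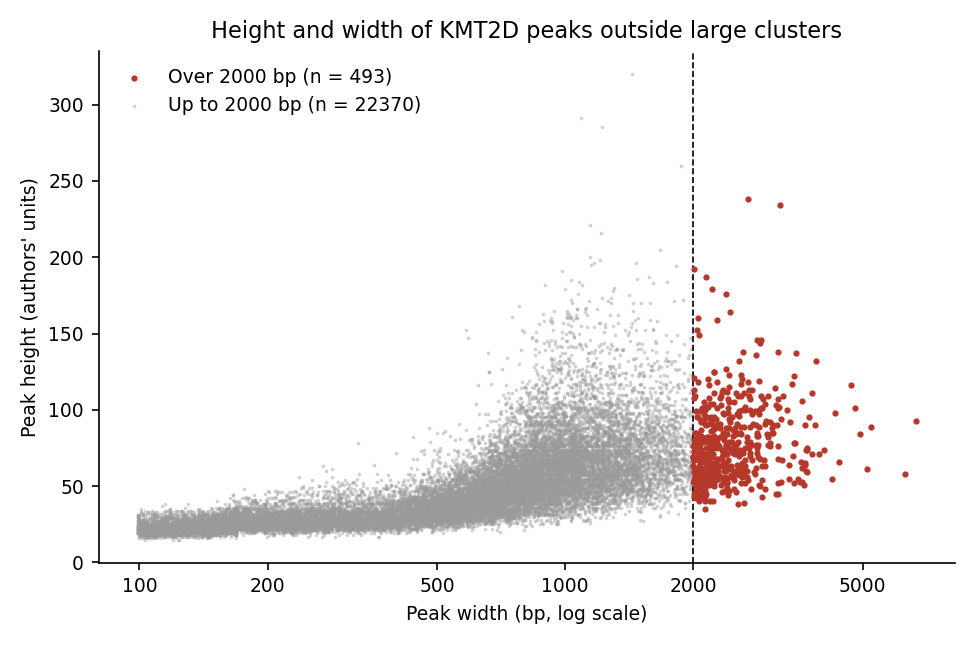
Each point is 1 KMT2D peak outside the large clusters, with its width in bp on a log axis and its height in the authors' units. The 493 peaks over 2000 bp (red, right of the dashed line) range in height from 35 to 238, while the tallest peaks of the list, up to 320, are narrower.

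Low broad peaks were rare. The lowest, on chromosome 2 at 10276130 to 10278257, had a height of 35, whereas peaks on chromosomes 1 to 22 were listed down to a height of 15. Outside the large clusters, 3 of the 11232 peaks with a height of up to 39 were broad, which is 0.0267% (0.00551 to 0.0780%). The share was 2.19% (1.83 to 2.61%) at heights of 40 to 59, 4.86% (4.17 to 5.64%) at 60 to 79, 7.31% (6.03 to 8.77%) at 80 to 99 and 9.42% (7.54 to 11.6%) at 100 to 149. At 150 and above it was 8.47%, or 10 of 118 peaks, with an interval of 4.14 to 15.03%. The share therefore increased with height up to the class of 80 to 99, and the classes above it have overlapping intervals.

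The highest point lay farther from the centre in broad peaks than in peaks of 1 to 2 kb. Its median distance was 471 bp (434 to 497 bp) in broad peaks, against 136 bp (133 to 142 bp) in peaks of 1 to 2 kb. As a share of the width this was 19.5% (18.1 to 21%) in broad peaks and 10.8% (10.6 to 11.1%) in peaks of 1 to 2 kb. Below the threshold the share already rose, from 9.9% (9.6 to 10.3%) at 1 to 1.5 kb to 15.2% (14.1 to 15.9%) at 1.5 to 2 kb. The highest point stood within the outer 20% at either end in 85 broad peaks, or 17.2% (14.0 to 20.9%), against 4.83% (4.24 to 5.47%) of peaks of 1 to 2 kb and 14.2% (13.7 to 14.6%) of all peaks on these chromosomes. It stood between 40 and 60% of the way along in 24.3% (20.6 to 28.4%) of broad peaks, against 46.2% (44.8 to 47.7%) of peaks of 1 to 2 kb. The end bands together cover 40% of the width and the central band 20%, so their shares cannot be set against each other directly. Among small peaks of 0.1 to 0.5 kb, 22.7% (21.8 to 23.5%) had it at an end, but there the median distance from the centre was 38 bp. Neither side was favoured beyond counting error, since 260 of the 493 broad peaks (52.7%; 48.2 to 57.2%) had it nearer the lower coordinate.

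Within the broad peaks the offset as a share of the width stood apart only in the widest. It was 18.6% (16.7 to 20.4%) for 2 to 2.5 kb, 19.7% (17.2 to 22.5%) for 2.5 to 3.5 kb and 30% (23.4 to 34.3%) above 3.5 kb. In bp, which scales with width, the median distance from the centre was 411 bp (364 to 445 bp) for 2 to 2.5 kb, 530.5 bp (482 to 646 bp) for 2.5 to 3.5 kb and 1236.5 bp (976 to 1479 bp) above 3500 bp. In that last class 16 of 32 peaks (50%; 31.9 to 68.1%) had their highest point in the outer 20% at an end, and 2 had it near the centre. The interval includes 40%, the part of the width that the end bands together cover. Among the 10 widest peaks the number at an end was 6, and among the 10 tallest it was 1. The peak on chromosome 18 described above, for example, had its highest point 12.1% of the way along. In the widest peak of all it stood 21.4% of the way along, 1909 bp from the centre.

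**Figure D2:**
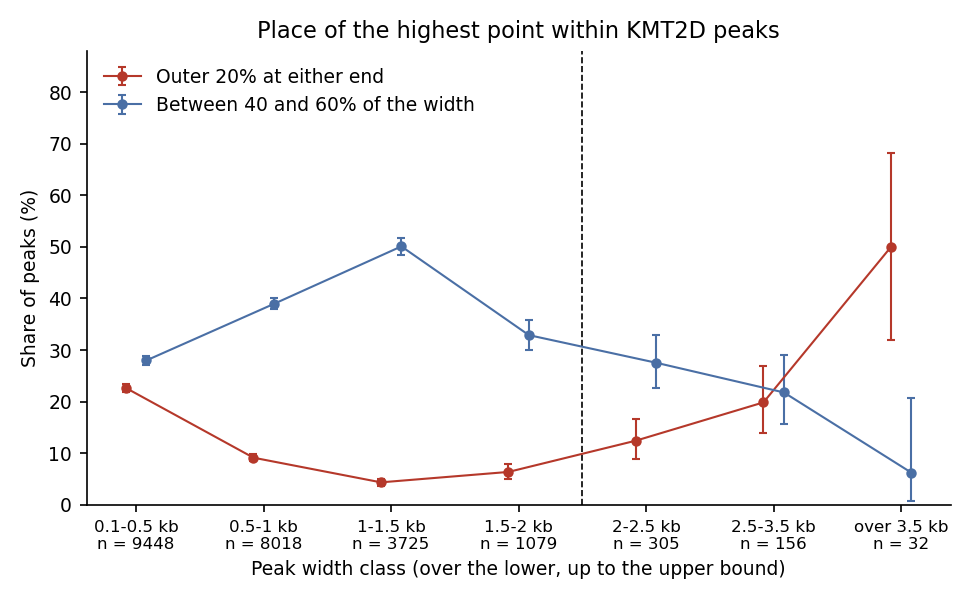
Share of KMT2D peaks outside the large clusters, by width class, whose highest point lies in the outer 20% of the peak at either end (red) or between 40 and 60% of its width (blue), with exact 95% binomial intervals. Central highest points are most frequent at 1 to 1.5 kb (50.1%) and fall to 6.25% above 3500 bp, where 50% lie near an end. The end bands together cover 40% of the width and the central band 20%. The dashed line marks the 2000 bp threshold.

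At a given height, the gap in the authors' score between broad and narrower peaks widened as peaks became taller. The score is a positive number per peak whose scale is not stated. At heights of 40 to 59 its median was 28.8 (27.96 to 29.5) for the 127 broad peaks and 28.6 (28.4 to 28.8) for peaks of 1 to 2 kb, and these intervals overlap. At 80 to 99 it was 41.6 (39.8 to 42.3) for 107 broad peaks and 43.3 (42.8 to 43.6) for peaks of 1 to 2 kb. At 100 to 149 it was 49.4 (46.8 to 51.7) for 80 broad peaks, 54.1 (53.5 to 54.9) for peaks of 1 to 2 kb and 63.3 (62.1 to 65.8) for peaks of 0.5 to 1 kb. The significance value followed the same order in these tall peaks, with medians of -70.9 for broad peaks, -77.7 for peaks of 1 to 2 kb and -88.6 for peaks of 0.5 to 1 kb. At heights of 40 to 59 the order was reversed, with medians of -37.2, -36.0 and -34.2 for the same widths. There the intervals of broad peaks and peaks of 1 to 2 kb overlap. At 60 to 79 the medians were close, at -47.5, -47.2 and -47.4. Over the broad peaks as a whole the score ran from 21.3 to 121.9 and had a Spearman correlation of 0.91 with height, as against 0.93 for peaks of 1 to 2 kb.

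Broad peaks had close neighbours more often than peaks of 1 to 2 kb, and about as often as peaks of all widths. The nearest other peak lay a median of 4670 bp away (3293 to 6784 bp) for broad peaks, against 11397 bp (10556 to 12371 bp) for peaks of 1 to 2 kb and 4650 bp (4432 to 4910 bp) for all peaks on these chromosomes. It was 8909 bp (7619 to 10693 bp) for peaks of 1.5 to 2 kb and 6853 bp (4483 to 9329 bp) for broad peaks of 2 to 2.5 kb. The distances of broad peaks were widely spread, with an interquartile range of 0.564 to 27.6 kb. A neighbour under 1000 bp away was present at 156 broad peaks, or 31.6% (27.6 to 35.95%), and at 23.1% (21.96 to 24.4%) of peaks of 1 to 2 kb. On either side of the threshold the shares were closer. They were 24.9% (22.4 to 27.6%) at 1.5 to 2 kb and 27.9% (22.9 to 33.3%) at 2 to 2.5 kb, and these intervals overlap. Over all peaks the share was 33.8% (33.2 to 34.4%), and among those of 0.1 to 0.5 kb it was 45.1% (44.1 to 46.1%). All peaks include those in the large clusters. Outside these clusters, peaks of up to 2000 bp had a median distance of 5625 bp (5341 to 5955 bp). Their share with such a neighbour was 32.2% (31.6 to 32.8%). At 23 broad peaks there was one on both sides. The contrast was widest in the class of 100 to 149 in height. There, 48.8% (37.4 to 60.2%) of broad peaks and 18.4% (15.2 to 21.9%) of peaks of 1 to 2 kb had such a neighbour. At heights of 80 to 99 the values were 25.2% (17.3 to 34.6%) and 20.8% (18.2 to 23.7%). They were 28.3% and 21.7% at 60 to 79, and 32.3% and 25.9% at 40 to 59. In each of these lower classes the intervals of the widths overlap.

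Most close neighbours were small peaks. The 179 neighbours counted at under 1000 bp from a broad peak had a median width of 338 bp (289 to 470 bp) and a median height of 29 (27 to 31), across a median gap of 283 bp (235 to 341 bp). Among them, 4 were broad peaks themselves, and widths reached 3448 bp and heights 173. In 16 cases (8.94%) the neighbour was taller than the broad peak beside it. Neighbours of peaks of 1 to 2 kb were alike in size, with a median width of 298 bp (261 to 327 bp) and a median height of 29 (28 to 29). Joining peaks under 500 bp apart before the rule was applied gave 2.03 times as many broad peaks.

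**Figure D3:**
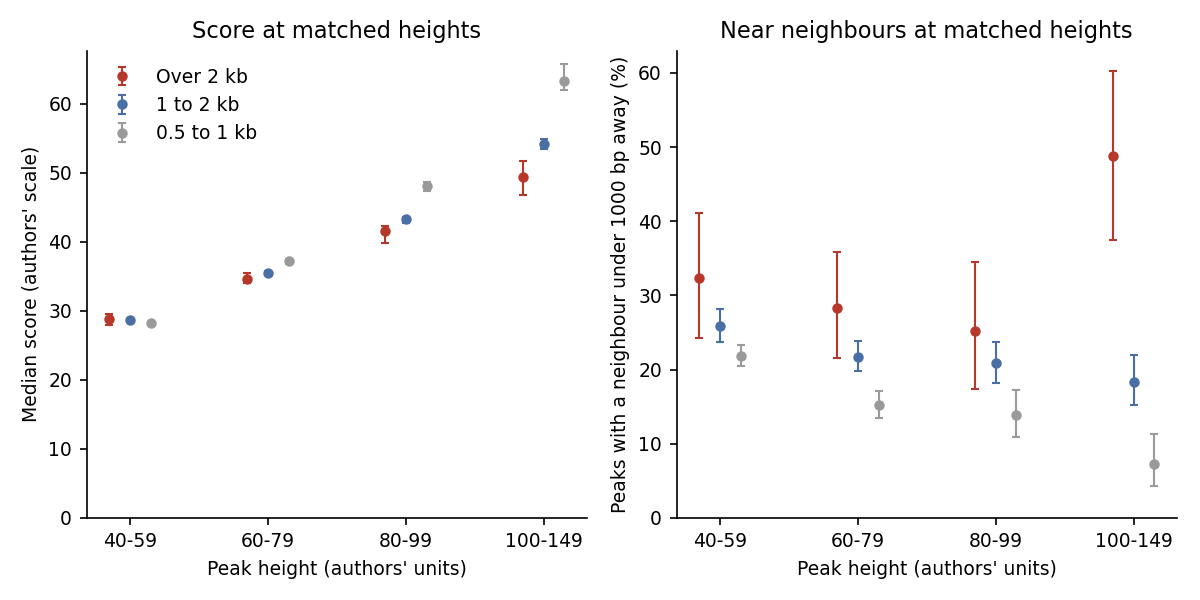
Median score on the authors' scale (left) and share of peaks with another peak under 1000 bp away (right), for peaks over 2000 bp (red), of 1 to 2 kb (blue) and of 0.5 to 1 kb (grey) in 4 classes of height, with 95% intervals. At heights of 100 to 149 broad peaks have the lowest median score (49.4) and the highest share with a near neighbour (48.8%).

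After stitching, 179 broad peaks (36.3%; 32.1 to 40.7%) were lone, against 48.3% (46.9 to 49.7%) of peaks of 1 to 2 kb and 36.5% (35.9 to 37.1%) of all peaks on these chromosomes. Outside the large clusters, 38.6% (38.0 to 39.3%) of peaks of up to 2000 bp were lone. The share was 44.4% (41.4 to 47.4%) at 1.5 to 2 kb and 39.7% (34.1 to 45.4%) in broad peaks of 2 to 2.5 kb. Stitching is also part of the rule. Another 175 lay in clusters of 2 to 4 peaks and 139 in clusters of 5 to 9. Lone broad peaks were slightly narrower than those in clusters of 2 to 4 or of 5 to 9, with median widths of 2277 bp (2236 to 2358 bp), 2395 bp (2295 to 2478 bp) and 2393 bp (2334 to 2554 bp), and these intervals overlap. Median heights were 71 (67 to 75), 74 (67 to 77) and 80 (75 to 85) in the same order. The place of the highest point varied little among them, at a median of 20.7, 19.9 and 18.2% of the width from the centre. Of the 314 broad peaks with cluster partners, 223 (71.0%; 65.7 to 75.98%) were the tallest of their cluster, against 66.9% (64.98 to 68.7%) of clustered peaks of 1 to 2 kb. These intervals overlap, and the sizes of the clusters were not matched.

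A few broad peaks were far from any other binding site. The most remote, on chromosome 9 at 3525008 to 3527230, was 2222 bp wide with a height of 71 and stood 680 kb from the next peak. The next were both on chromosome 2, where 2252 bp at 153573488 to 153575740 with a height of 89 stood 541 kb away and 2070 bp at 5835785 to 5837855 with a height of 77 stood 526 kb away. In all, 39 broad peaks had no other peak within 100 kb. Their median height of 65 (60 to 75) and width of 2326 bp (2222 to 2418 bp) overlap in their intervals with those of all lone broad peaks, which include them. How often peaks of other widths stood as far away is not given here.

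Some broad peaks shared a cluster. Of the 475 clusters and lone sites that held broad peaks, 459 held 1, 14 held 2 and 2 held 3, with the large clusters already left out by the rule. The first of these trios lay on chromosome 17 within a stretch of 25.3 kb at 56405123 to 56430457. Its broad peaks were 2242, 3448 and 2892 bp wide with heights of 125, 122 and 109, and 512 bp separated the closest pair. The second trio lay on chromosome 5 within 22.5 kb at 138717697 to 138740244. There the widths were 3635, 3024 and 2385 bp, the heights were 51, 92 and 88, and the gaps were 1861 and 881 bp. Peaks covered 48.4% of the stretch on chromosome 17 and 46.5% of that on chromosome 5. The trio on chromosome 17 was of even height, while on chromosome 5 the widest peak was the lowest.

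Chromosome 5 also held the 3 pairs of broad peaks with the most bases. They lay at 175954378 to 175977730 with heights of 89 and 101, at 176924091 to 176944649 with heights of 50 and 75, and at 140886073 to 140909869 with heights of 57 and 78. A pair on chromosome 9 at 37025787 to 37037996 combined the third tallest broad peak, at 192, with one of height 52, in a stretch of 12.2 kb of which peaks covered 71.2%.

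**Figure D4:**
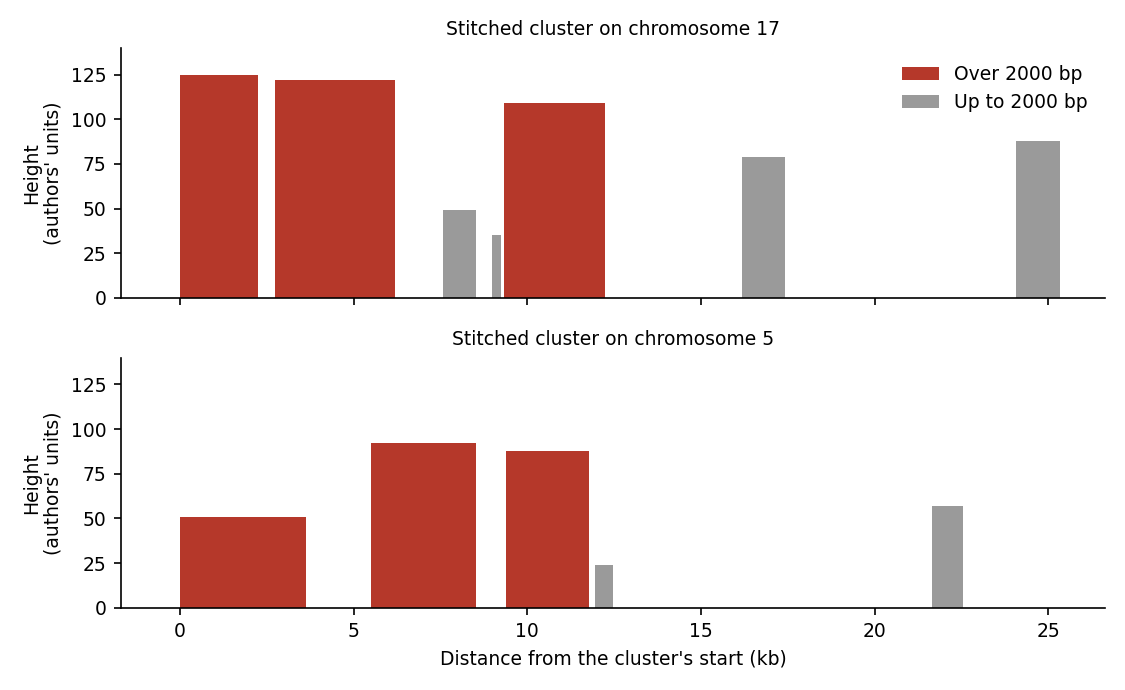
The 2 stitched clusters that hold 3 broad peaks each, drawn to scale from each cluster's start in kb, with 1 bar per peak as wide as the peak and as tall as its height in the authors' units. The red bars are peaks over 2000 bp, with heights of 109 to 125 on chromosome 17 (top) and 51 to 92 on chromosome 5 (bottom).

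Broad peaks were spread over all 22 chromosomes examined, but made up very different shares of their peaks. On chromosome 13 they were 18 of 447 peaks, or 4.03% (2.40 to 6.29%), on chromosome 4 they were 34 of 853, or 3.99% (2.78 to 5.53%), and on chromosome 6 they were 49 of 1397, or 3.51% (2.61 to 4.61%). Chromosome 19, with the most peaks per Mb, had 6 broad peaks among 1570, or 0.382% (0.140 to 0.830%). The share on chromosome 4 was thus 10.4 times that on chromosome 19, with an exact conditional interval of 4.33 to 30.4. Chromosome 22 had 7 of 713, or 0.982% (0.396 to 2.01%). Chromosome 18, which like chromosomes 4 and 13 had few peaks per Mb, had 4 of 359, or 1.11%, with an interval of 0.304 to 2.83%. The median over the chromosomes was 1.88%. The chromosomes named here were picked with these shares in view.

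Counted per Mb, broad peaks were spread more evenly. Their density ran from 0.0515 per Mb on chromosome 18 and 0.102 per Mb on chromosome 19 to 0.287 per Mb on chromosome 6 and 0.333 per Mb on chromosome 17, with a median of 0.170 per Mb. Across the 22 chromosomes it had a Spearman correlation of 0.21 with the density of all peaks, and of 0.36 without chromosome 19. The share of peaks that were broad had one of -0.59 with that density and of -0.53 without chromosome 19. The number of all peaks enters both sides of that relation.

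Peaks of similar height tended to be narrower on the chromosomes dense in peaks. Among peaks with a height of 60 to 79 outside the large clusters, the median width was 1289 bp (1168 to 1434 bp) on chromosome 4, 1240 bp (1073 to 1340 bp) on chromosome 13, 899 bp (857 to 946 bp) on chromosome 17 and 790 bp (762 to 830 bp) on chromosome 19. Of these peaks, 15 of 111 (13.5%; 7.77 to 21.3%) were broad on chromosome 4 and 8 of 47 (17.02%; 7.65 to 30.8%) on chromosome 13. On chromosome 17 it was 5 of 219 (2.28%; 0.745 to 5.25%), and on chromosome 19 it was 0 of 306, which allows a share of up to 0.980% when 3 peaks are taken as the limit (exact binomial upper bound 1.20%). Across the 22 chromosomes the median width at this height had a Spearman correlation of -0.87 with the density of peaks and of -0.86 with the lowest height listed on the chromosome. Without chromosome 19 these were -0.85 and -0.84. Single chromosomes departed from this order. The largest median width was on chromosome 21, 1322 bp (1116 to 1461 bp) from 41 peaks, at 7.61 peaks per Mb. Chromosome 18, at 4.62 peaks per Mb, had 1142 bp (1002 to 1440 bp) from 25 peaks.

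The lowest listed height differed between chromosomes, and the height of the lowest broad peak tended to be greater where it was greater. Across the 22 chromosomes their Spearman correlation was 0.76, and 0.73 without chromosome 19. The lowest listed height was 15 on chromosome 4, 17 on chromosomes 6 and 13, 23 on chromosome 17 and 26 on chromosome 19. The lowest broad peak had a height of 40 on chromosomes 4 and 13, 42 on chromosome 6, 57 on chromosome 17 and 85 on chromosome 19. Other chromosomes departed from this order. The lowest broad peak was 40 high on chromosome 12, listed from 20, and 46 on chromosome 16, listed from 22. Such a minimum also depends on the number of broad peaks, which was 6 on chromosome 19 and 34 on chromosome 4. Median heights of the broad peaks were 69.5, 66.5, 72, 101 and 94.5 on chromosomes 4, 13, 6, 17 and 19. The share of peaks that were broad had a Spearman correlation of -0.62 with the lowest listed height across the 22 chromosomes. When only peaks with a height of 26 or more were kept on every chromosome, a setting added with the data known, the ratio of shares between chromosomes 4 and 19 was 17.1 (7.10 to 49.6), against 10.4 over all peaks. That setting removes low peaks, none of which was broad, from chromosome 4 and none from chromosome 19. It also changes the clusters, so wide peaks left out before can enter. The number of broad peaks over chromosomes 1 to 22 was 521 under it, against 493. Copy number was not examined.

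**Figure D5:**
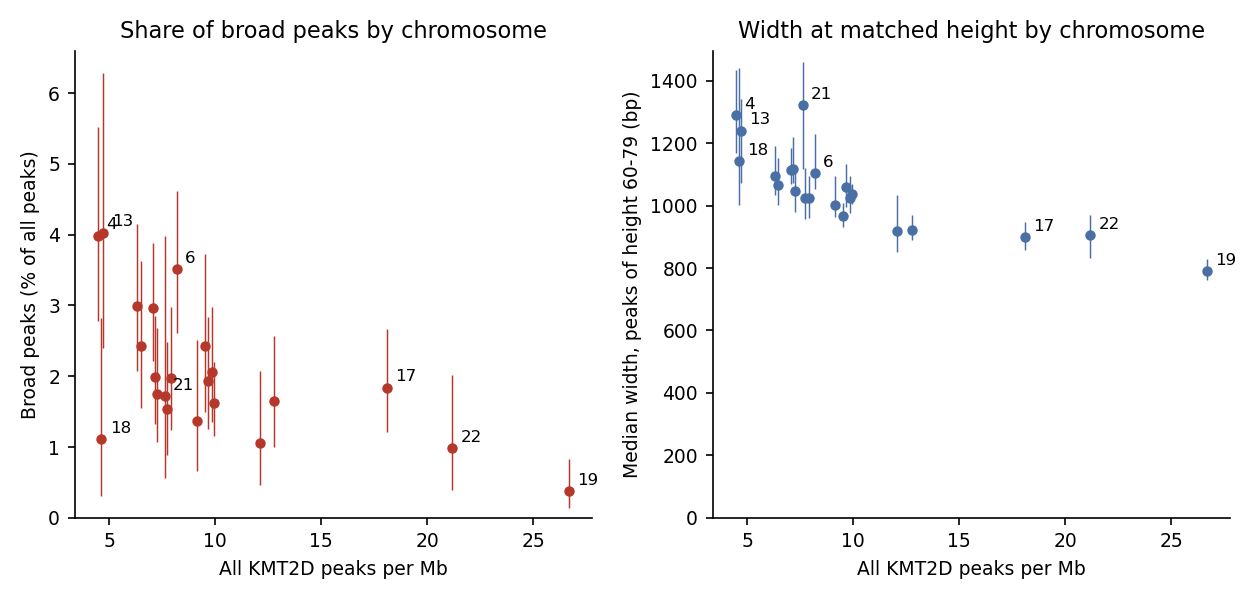
For each of the 22 chromosomes, the share of its peaks that were broad (left, in percent) and the median width in bp of its peaks with a height of 60 to 79 (right) against all its KMT2D peaks per Mb, with 95% intervals. Chromosome 19, at 26.7 peaks per Mb, has the lowest value in both panels (0.382% and 790 bp), and chromosome 18 has a low share (1.11%) at 4.62 peaks per Mb.

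Broad peaks lay in windows of the genome that were fuller than others. Of 2140 windows of 1 Mb with a peak, 374 held a broad peak. Those windows held a median of 17 peaks (16 to 18), the broad ones included, against 6 (5 to 6) in the 1766 windows with peaks but no broad one. A window with more peaks has more chances to hold a broad one. In 283 windows there was 1 broad peak, in 69 there were 2, and in 22 there were 3 or more.

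The window with the most broad peaks, on chromosome 11 from 64 to 65 Mb, had 6 broad peaks among 81. Their heights fell into a tall set of 136, 111 and 132, at 64036597 to 64039409, 64510130 to 64513937 and 64899239 to 64903127, and a low set of 53, 53 and 50. On chromosome 6, the window from 26 to 27 Mb had 5 broad peaks among 48, which lay between 26031613 and 26218021 with heights of 97, 105, 83, 67 and 75 and widths of 2118 to 2858 bp. The next megabase of chromosome 6 added 3 among 36. On chromosome 12, the window from 57 to 58 Mb had 4 broad peaks among 38, with heights of 58, 43, 44 and 70. The window on chromosome 4 from 140 to 141 Mb held 3 broad peaks among only 10. The named windows were picked with their counts in view.

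The 49 peaks over 2000 bp inside the large clusters had their highest points about as far from the centre as the broad peaks outside them. The 493 broad peaks had a median height of 75 (71 to 77), against 87 (73 to 100) for those 49, and their highest points lay 19.5% of the width from the centre, against 19.4% (14.4 to 23.2%). The nearest other peak was 4670 bp away for the 493 and 359 bp away (296 to 456 bp) for the 49, a difference that the choice by clusters helps to fix.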

How the data were processed

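The data were 1 headerless list of KMT2D peaks in hg19. The submitters' processing notes name CASAVA 1.8.2. How reads were aligned, which caller and threshold made the peaks and how the input entered is not given in the sources used here. Column meanings were read from the values. The authors deposited a height per peak, treated as signal in their own units, a score and a significance value of unstated scale, and the place of the highest point in percent of the width. Input values were not analysed here.

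Peaks were stitched at gaps of at most 12500 bp. Medians have order-statistic intervals, shares exact binomial ones, and the difference in medians the bounds from both intervals. The rule and lists were chosen with earlier results of these data known. Peaks named are the 10 widest, the 10 tallest, those at minus infinity, the 5 on each side of the threshold, the 3 most remote and up to 5 groups with the most broad peaks; other named peaks, groups and windows were picked with their values in view. On 1620 simulated peaks the rule recovered 120 of 120 planted broad peaks. These were planted well over the width threshold, so this checked the code and not peaks near the threshold. Whether positions count from 0 or 1 is not stated. Scripts ran in Python 3.11.15 (scipy 1.17.1, pandas 2.3.3, numpy 2.4.6); figures used matplotlib 3.10.9.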

Additional observations from a re-analysis of the deposited data

How the results depend on the processing

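With 1 library a value counted as moved when it left its own interval or, for the number of broad peaks, changed by over 1.5 times. Of 72 alternative values of 8 results, 47 stayed and 25 moved; where fewer or other peaks enter by construction, so do the shifts. A width over 1500 bp gave 3.19 times as many peaks, of median width 1799.5 bp, 41.9% lone, with the nearest peak 7578.5 bp away, the highest point 16.4% off centre, and a ratio of chromosome 4 to 19 of 3.18. A width over 2500 bp gave 0.381 times as many, of width 2843.5 bp and height 78, a height difference of 11, 30.9% lone, 2810 bp and 21.6%. Merging peaks under 500 bp apart gave 2.03 times as many, of width 2455 bp and height 70, 21.9% off centre and a ratio of 3.31. Stitching at 5 kb left 46.4% lone, and stitching at 25 kb left 31.1%, with the nearest peak 6837 bp away. The highest-scoring 50% of peaks gave 55.9% lone and 16756 bp. Requiring a height of at least 26, a setting added with the data known, gave 44.5% lone and 7879 bp. The ratio of chromosome 4 to 19 was added likewise and lay between 3.18 and 17.3. The height difference for widths over 1500 bp, which overlap the narrower class, and distances to gene starts were not run. No paired analysis was possible because there was 1 ChIP library. Sites absent from the list may still be bound, since the depth is unknown.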

Other observations

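Chromosome X, which the comparisons left out, had 7 peaks over 2000 bp, and chromosome Y had 0. Of the 7, 1 lay in a cluster of 11 peaks. The widest, at 153190845 to 153194380, spanned 3535 bp with a height of 67. Heights of the 7 ran from 35 to 67, and 3 of the others lay at 38662848 to 38665298, 39956623 to 39959578 and 40943347 to 40945887 with heights of 35, 40 and 57.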
